A study of Homo sapiens with 2 samples.

Results

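The 46 DNA replication and E2F genes described here are the genes of origin licensing, the replicative helicase, the polymerases, the sliding clamp and its loader, nucleotide supply and the E2F and cyclin E switch. They were taken by name from a list of such genes, drawn up with earlier results of these data known but with no measured value in the rule, and all 46 were found by symbol among the 22965 gene IDs of the count tables. RNA-seq gene counts came from H460 cells, an established human large-cell lung cancer line. In the PKP2 library the cells carried the pSin-puro vector delivering PKP2, which encodes the desmosomal plaque protein plakophilin 2, and in the vector library they were controls labelled as vector. Both cultures were at passage 5 in DMEM with serum, whether either line was a clone or a pool is not stated in the labels, and the study used the pair to look for genes downstream of PKP2.

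The PKP2 library held 20319137 counts and the vector library 23513304. PKP2 itself had 1330 counts in the PKP2 library and 181 in the vector library, a log2 ratio of 3.11. With 1 library per group no difference below has a replicate check and no p-value exists. The intervals of ratios and of shares of counts cover counting error only. Levels are CPM, a gene's count scaled by the TMM-adjusted library size, or CPM per kb where genes are compared with each other, and each ratio is the log2 of PKP2 CPM over vector CPM. Keratin and vimentin genes of the line were abundant, from 120.7 to 544 CPM per kb in the PKP2 library for KRT8, KRT18, KRT19 and VIM and from 161 to 517 in the vector library, while EPCAM (16 and 28 counts) and NKX2-1 (3 and 10) were low. The abundant ones did not share a direction, with ratios of 1.08 for KRT19, 0.07 for VIM, -0.41 for KRT18 and -0.58 for KRT8. Of 13 listed fibroblast, blood and endothelial marker genes 5 were found (the others and CDH1 were not analysed here). The highest was COL3A1, at 2.98 CPM per kb in the PKP2 library and 7.40 in the vector library. In the same order PDGFRB was at 1.81 and 0.82, CD14 at 0.61 and 2.01 and COL1A1 at 0.35 and 0.83, while VWF had 0 and 2 counts. The part of such cells in the ratios was not tested.

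Replication origins are bound by the origin recognition complex and licensed in G1 phase when CDC6 and CDT1 load the MCM helicase onto DNA. In S phase CDC45 and the GINS complex join the helicase, DNA polymerase alpha with its primase starts each strand, and polymerases delta and epsilon extend them with the PCNA clamp. Many of these genes are transcribed by E2F factors, which are held in check by the RB family until cyclin-dependent kinases release them, so that their RNA is used as a sign of entry into S phase. In a bulk library fewer cells in S phase and less RNA per cell cannot be told apart.

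The replication genes had nearly the same level in both libraries. All 46 had a mean of at least 10 counts (the lowest mean was 261), and none was 2-fold higher or lower in the PKP2 library. Of the 15991 genes tested 2.47% were 2-fold higher and 4.61% 2-fold lower. Genes that averaged 100 counts or more are the closer background, and of these 11637 genes 1.38% were 2-fold higher and 1.8% 2-fold lower. None of 46 is close to those shares. Their median ratio was 0.01, beside -0.03 for all genes tested. The 95% order-statistic interval of that median over members was -0.10 to 0.11. This interval concerns the median only, and the members are genes of the same 2 libraries and not replicates. The members themselves ran from -0.72 to 0.45, with quartiles of -0.14 and 0.14. Of the members 24 had a ratio above 0 (47.3% of all genes tested) and 22 one below (52.7%). Summed, they took 0.402% of the unscaled counts in the PKP2 library (exact binomial interval 0.399 to 0.404). In the vector library they took 0.410% (0.408 to 0.413). On the TMM-adjusted library sizes the ratio of their summed counts was -0.01 (interval -0.02 to 0.01). The intervals of the shares do not overlap while that of the ratio holds 0, so this small difference depends on the scaling.

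Counting intervals of single members lay on both sides of 0, as they did for many other genes. The exact binomial interval of the ratio lay wholly above 0 for 17 members (25.9% of all genes tested) and wholly below 0 for 15 (28.8%), and it held 0 for the other 14. CDT1, POLD1 and UHRF1 were past 1.5-fold, all lower in the PKP2 library, which is 3 of 46 where 12.9% of all genes tested were 1.5-fold lower. No member was 1.5-fold higher, against 6.87% of all genes tested. Among the 11637 genes that averaged 100 counts or more, 4.51% were 1.5-fold higher and 7.85% 1.5-fold lower. Of those genes 32.7% had an interval above 0 and 32.8% one below, shares close to those of 17 and 15 of 46 members. Values called corrected have the trend with transcript GC content over all such genes subtracted, as described further on.

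**Figure D1:**
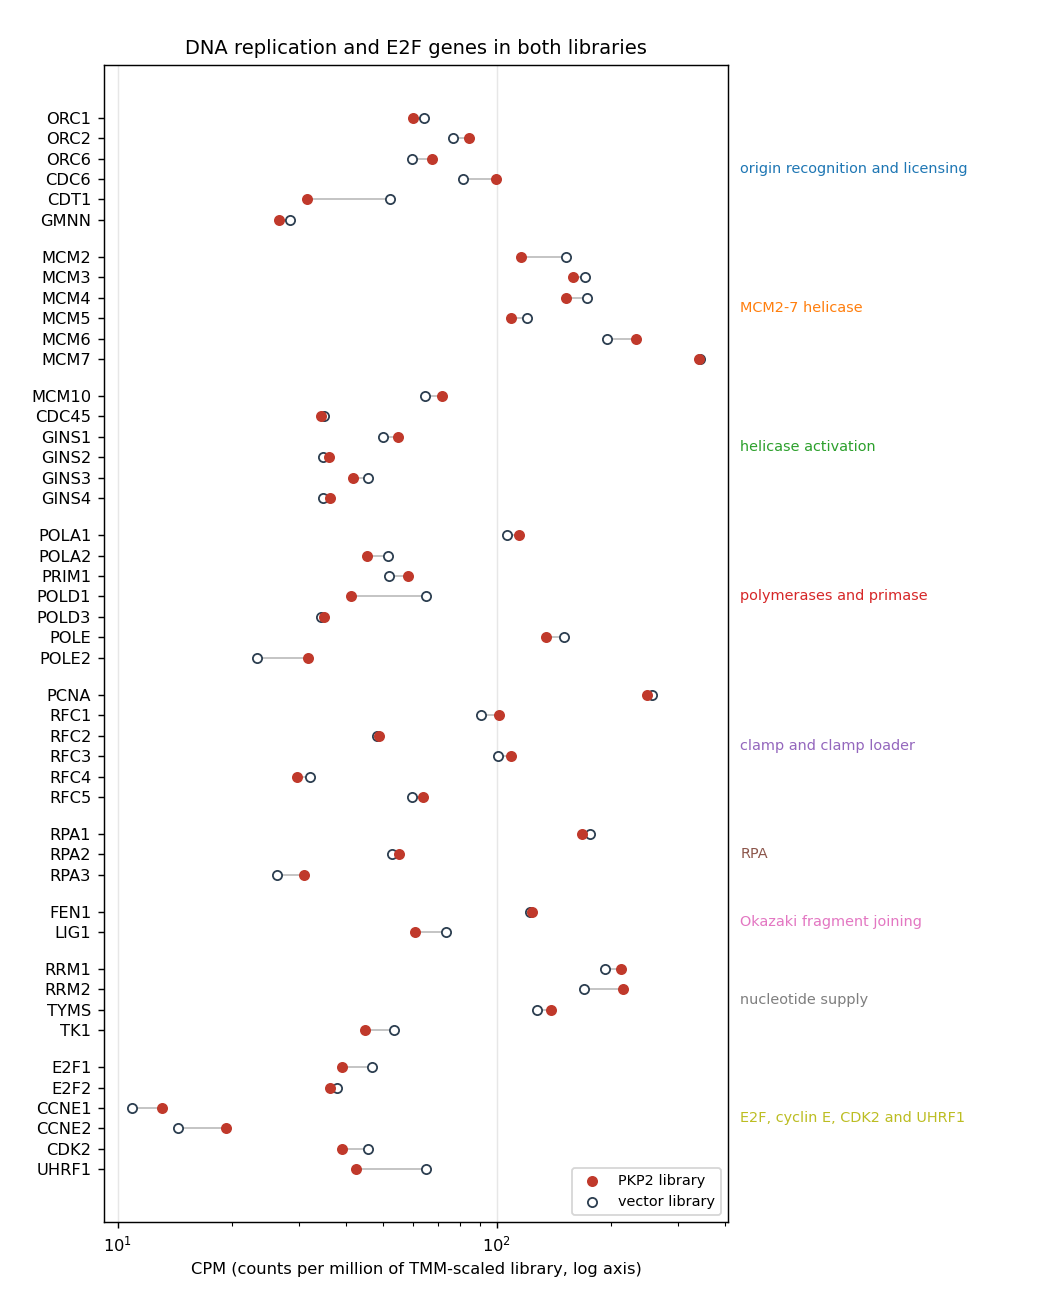
Level of each member in CPM (log axis) in the PKP2 library (filled red) and the vector library (open), ordered by role. The 2 points of a gene lie close together for most members, from MCM7 (341 and 343 CPM) to CCNE1 (13.1 and 10.9 CPM), and the widest gaps are those of CDT1, POLD1, UHRF1 and POLE2.

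Promoters of the members often hold the sequence that E2F factors bind, shown here because the list is named for these factors. The E2F motif was searched as TTTCCCGC, TTTGCCGC, TTTCGCGC or TTTGGCGC on both strands in RefSeq promoter windows of GRCh38.p14, which run from before to just after each gene's start. Of the 46 members 38 had a window in the table, and 18 of these (47.4%) held the motif, beside 4.96% of the 11178 matched windows of genes tested and 3.27% of all 27305 windows. The CHR element TTTGAA, known from promoters of mitotic genes, was in 1 member window (2.63%), beside 12 of 16 windows of the mitotic list (75%) and 10.1% of genes tested. The CCAAT box (CCAAT) was in 57.9% of member windows and 36.4% of windows of genes tested, and the GC box (GGGCGG) in 76.3% and 68.5%. The 18 members with an E2F match had a median ratio of -0.08, from -0.72 to 0.45. The 20 without had 0.01, from -0.66 to 0.34, so both sets spanned 0. Corrected, the medians were -0.0005 with a match and 0.02 without, and the difference between the sets was not tested. A match is a description of letters, and the motifs were not tested as sites.

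The windows with the most E2F matches were those of MCM6 (4), E2F1, MCM2 and MCM3 (2 each), and CDT1 is added, after its value was seen, because it had the lowest ratio. The 250 bases before the annotated start are printed in the direction of transcription with E2F matches in capitals. They lie at chr2:135876444-135876693, minus strand (MCM6), chr20:33686386-33686635, minus strand (E2F1), chr6:52284743-52284992, minus strand (MCM3), and chr16:88803539-88803788, plus strand (CDT1). The matches in the MCM2 window lie after the annotated start and are not printed, as is 1 of the matches of MCM3.
MCM6: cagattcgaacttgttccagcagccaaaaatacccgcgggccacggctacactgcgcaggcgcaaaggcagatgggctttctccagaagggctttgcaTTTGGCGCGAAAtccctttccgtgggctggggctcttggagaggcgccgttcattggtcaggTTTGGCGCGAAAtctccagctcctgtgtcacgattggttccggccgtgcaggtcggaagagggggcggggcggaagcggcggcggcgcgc
E2F1: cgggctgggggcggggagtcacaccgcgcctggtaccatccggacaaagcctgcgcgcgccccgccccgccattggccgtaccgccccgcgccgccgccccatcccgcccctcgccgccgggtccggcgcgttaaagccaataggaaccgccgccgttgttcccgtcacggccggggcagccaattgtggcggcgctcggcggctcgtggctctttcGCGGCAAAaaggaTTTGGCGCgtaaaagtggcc
MCM3: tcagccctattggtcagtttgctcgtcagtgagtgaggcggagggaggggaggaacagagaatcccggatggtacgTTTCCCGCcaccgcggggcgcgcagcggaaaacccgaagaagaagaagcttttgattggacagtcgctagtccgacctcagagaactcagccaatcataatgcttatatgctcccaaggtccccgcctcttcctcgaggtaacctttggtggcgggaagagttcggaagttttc
CDT1: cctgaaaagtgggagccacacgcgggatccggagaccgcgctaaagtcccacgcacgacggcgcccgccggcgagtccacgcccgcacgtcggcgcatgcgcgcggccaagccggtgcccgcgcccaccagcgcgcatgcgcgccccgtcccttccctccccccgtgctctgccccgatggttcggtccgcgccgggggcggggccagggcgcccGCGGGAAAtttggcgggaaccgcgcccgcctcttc
In MCM6 the 4 matches form a pair of stretches in which a match on each strand overlaps the other, and they begin between 152 and 86 bases before the start. In E2F1, whose protein acts on its own promoter, they begin 33 and 20 bases before the start, and in CDT1 the single match begins 35 bases before it. MCM6 had a ratio of 0.25 (0.12 corrected), E2F1 one of -0.27 (0.14 corrected) and MCM3 one of -0.10 (-0.05 corrected). CDT1, picked for its low ratio, was at -0.72 (-0.21 corrected), so its side of 0 was set by the choice.

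**Figure D2:**
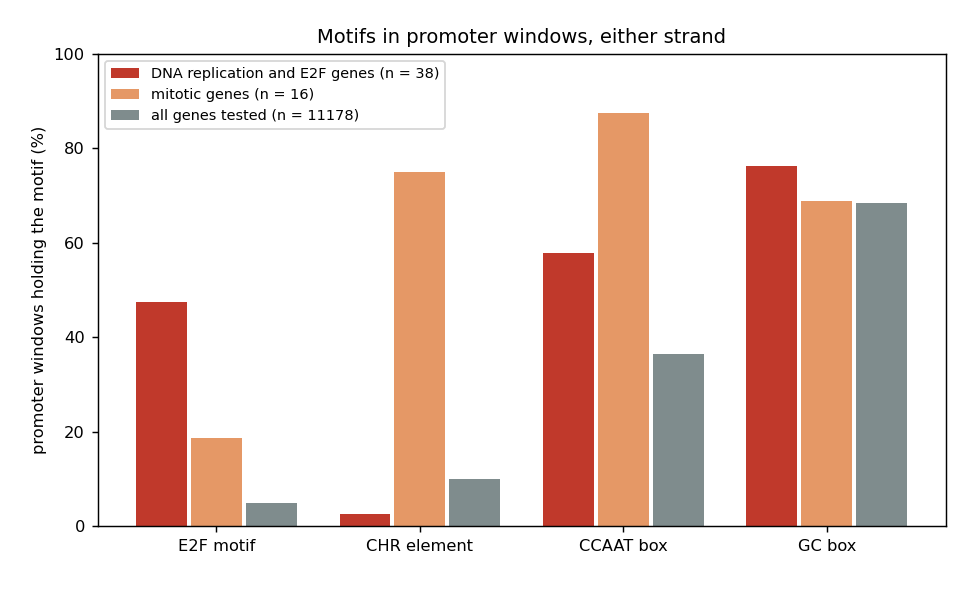
Share of RefSeq promoter windows (%) that hold each motif on either strand, for members (red, n = 38), the mitotic list (orange, n = 16) and all genes tested (grey, n = 11178). The E2F motif is in 47.4% of member windows and the CHR element in 75% of mitotic windows, while the GC box is common in every set.

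Among the origin genes, the origin recognition complex genes on the member list, ORC1, ORC2 and ORC6, ran from -0.10 to 0.17. ORC1, which carries its ATPase activity and comes and goes with the cell cycle, had 1209 counts in the PKP2 library and 1526 in the vector library, for a ratio of -0.10 (interval -0.21 to 0.01). ORC2 had 1695 and 1812 counts, for a ratio of 0.14, and ORC6 had 1359 and 1420, for a ratio of 0.17 (interval 0.06 to 0.28). Of the subunits outside the member list, ORC3 was at 0.34 (interval 0.21 to 0.47) and ORC5 at 0.33 (interval 0.22 to 0.44). ORC4 was at 0.09 (interval -0.03 to 0.21). Their corrected ratios were 0.12 for ORC3, 0.18 for ORC5 and -0.16 for ORC4. CDC6, the ATPase that joins the origin recognition complex to load MCM rings, had 1998 counts in the PKP2 library and 1929 in the vector library, for a ratio of 0.29 (interval 0.20 to 0.38). Its loading partner CDT1 went the other way and had the lowest ratio of all members, -0.72 (interval -0.86 to -0.58), with 636 counts in the PKP2 library and 1236 in the vector library, or 31.6 and 52.1 CPM. Geminin, the inhibitor of CDT1 encoded by GMNN, had 536 and 675 counts, for a ratio of -0.10 (interval -0.26 to 0.07). There were thus 1.19 CDT1 counts for each GMNN count in the PKP2 library and 1.83 in the vector library. The difference between the ratios of CDT1 and GMNN was -0.63 (interval -0.84 to -0.41), a comparison that does not depend on library scaling. CDT1 has a transcript GC content of 64.9% and GMNN one of 43.6%, and their corrected ratios were -0.21 and -0.22. CDC6 stayed above 0 with the correction, at 0.21, and ORC2 was at -0.05.

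The 6 subunits of the MCM helicase ring, which unwinds DNA at the fork, had a median ratio of -0.12. Of these 5 had a ratio below 0 (52.7% of all genes tested did), among them MCM7, whose interval held 0. Only MCM6 was higher, with 4696 counts in the PKP2 library and 4642 in the vector library, for a ratio of 0.25 (interval 0.19 to 0.31). MCM2 was the lowest, with 2338 and 3613 counts, for a ratio of -0.39 (interval -0.47 to -0.32). MCM3 had a ratio of -0.10, MCM4 one of -0.18 and MCM5 one of -0.14, each with its interval below 0. MCM7, the most abundant subunit at 115 CPM per kb in the PKP2 library and 116 in the vector library, had 6862 and 8134 counts and a ratio of -0.01 (interval -0.06 to 0.04). Subunits of 1 ring thus spanned 0.64 on the log2 scale, while the counts summed over the ring had a ratio of -0.06 (interval -0.08 to -0.03). The ratios of MCM2 and MCM7, a pair chosen after the values were seen, differed by -0.38 (interval -0.47 to -0.29), and both transcripts have a GC content of 58.1%. With the correction the median over the ring was 0.01 and 3 of the 6 subunits were above 0, MCM7 at 0.23, MCM6 at 0.12 and MCM5 at 0.06. Below 0 were MCM4 at -0.19, MCM2 at -0.15 and MCM3 at -0.05.

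Genes of helicase activation lay close to 0, between -0.14 and 0.15. MCM10, a fork protein needed to start unwinding, had 1442 counts in the PKP2 library and 1529 in the vector library, for a ratio of 0.15 (interval 0.05 to 0.26), and CDC45 had 690 and 829, for a ratio of -0.03 (interval -0.18 to 0.12). The 4 subunits of the GINS complex ran from GINS3 at -0.14 (838 and 1087 counts) to GINS1 at 0.13 (1101 and 1185 counts), with GINS2 and GINS4 both at 0.05. Ordered by level per kb, the GINS genes kept the same order in both libraries, from GINS4 (9.43 CPM per kb in the PKP2 library and 9.07 in the vector library) to GINS3 (18.3 and 20.1).

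Among the members, subunits of the same replicative polymerase differed in ratio. POLD1, the catalytic subunit of polymerase delta, had 828 counts in the PKP2 library and 1538 in the vector library, for a ratio of -0.66 (interval -0.78 to -0.53), and POLD3, an accessory subunit, had 703 and 814, for a ratio of 0.03 (interval -0.12 to 0.17). In polymerase epsilon the catalytic subunit gene POLE had 2706 and 3562 counts, for a ratio of -0.16, and the accessory subunit gene POLE2 had 639 and 551, for a ratio of 0.45 (interval 0.28 to 0.62), the highest of all members. For polymerase alpha the catalytic POLA1 was at 0.10 (2302 and 2524 counts) and the regulatory POLA2 at -0.19 (912 and 1228 counts). PRIM1, the catalytic primase subunit, had 1175 and 1229 counts, for a ratio of 0.17. The difference between catalytic and accessory subunit was -0.68 for POLD1 against POLD3 (interval -0.87 to -0.49) and -0.61 for POLE against POLE2 (interval -0.79 to -0.43). For POLA1 against POLA2 it had the other sign, 0.30 (interval 0.15 to 0.44). The corrected ratios lay closer together, at -0.15 for POLD1 and -0.11 for POLD3, 0.03 for POLE and 0.29 for POLE2, and -0.03 for POLA1 and -0.06 for POLA2. PRIM1 was at -0.02 with the correction. Accessory subunits outside the member list did not all lie with POLD3 and POLE2. POLD2 was at -0.21 (interval -0.31 to -0.11) and POLE4 at -0.15 (interval -0.41 to 0.10), while POLD4 was at -0.01 and POLE3 at 0.03. Corrected, POLD2 was at 0.07, POLE4 at -0.11, POLD4 at 0.34 and POLE3 at -0.03.

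PCNA, the sliding clamp that holds polymerases on DNA, had the highest level per length of all members, 183 CPM per kb in the PKP2 library and 189 in the vector library. Its 5003 and 6093 counts gave a ratio of -0.05 (interval -0.10 to 0.01). The clamp loader genes lay between RFC4 at -0.12 (596 counts in the PKP2 library and 764 in the vector library) and RFC1, the large subunit, at 0.16 (2035 and 2150). RFC2 was at 0.01, RFC3 at 0.11 and RFC5 at 0.10, and the intervals of RFC2, RFC4 and RFC5 held 0. In replication protein A, which coats single-stranded DNA, the large subunit gene RPA1 had a ratio of -0.07 (3375 and 4174 counts), RPA2 one of 0.06 (1112 and 1255) and the small subunit gene RPA3 one of 0.23 (622 and 623, interval 0.07 to 0.40). Of the genes that finish the lagging strand, the flap nuclease FEN1 was at 0.02 (2488 and 2897 counts) and the ligase LIG1 at -0.27 (1222 and 1737, interval -0.38 to -0.16). The correction moved LIG1 to 0.06 and RFC1 to -0.003, and left RPA3 at 0.17.

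Nucleotide supply was the role with the highest summed ratio, 0.17 (interval 0.13 to 0.20), a value without the GC correction. RRM2, the S-phase subunit of ribonucleotide reductase, had 4337 counts in the PKP2 library and 4030 in the vector library, for a ratio of 0.34 (interval 0.28 to 0.40), and RRM1, the large subunit, had 4271 and 4571, for a ratio of 0.14. Thymidylate synthase, TYMS, had 2790 and 3036 counts, for a ratio of 0.11 (interval 0.04 to 0.19). The salvage enzyme gene TK1 lay on the other side, with 903 and 1273 counts and a ratio of -0.26 (interval -0.38 to -0.13). With the correction TK1 was at 0.11, RRM2 at 0.20, TYMS at 0.13 and RRM1 at 0.01 (interval -0.05 to 0.07). In both libraries the order by CPM per kb was TYMS, RRM1, RRM2 and TK1.

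The regulators of S-phase entry had no shared direction, and CCNE2, CCNE1 and E2F2 had the 3 lowest levels per length of all members. E2F1, an activator of replication genes, had 785 counts in the PKP2 library and 1113 in the vector library, for a ratio of -0.27 (interval -0.40 to -0.13), and E2F2 had 729 and 896, for a ratio of -0.06 (interval -0.20 to 0.08). The E-type cyclins, which drive CDK2 at the start of S phase, were higher in the PKP2 library, CCNE1 with 263 and 259 counts, for a ratio of 0.26 (interval 0.01 to 0.51), and CCNE2 with 388 and 341, for a ratio of 0.42 (interval 0.21 to 0.64). Their kinase CDK2 had 785 and 1087 counts, for a ratio of -0.23 (interval -0.37 to -0.10). UHRF1, which brings DNA methylation to newly copied DNA, had 858 and 1543 counts, for a ratio of -0.61 (interval -0.73 to -0.49). With the correction E2F1 was above 0, at 0.14, and CCNE1 was at 0.35. CCNE2 was then at 0.16, with an interval that held 0 (-0.06 to 0.37). CDK2 and UHRF1 stayed below 0, at -0.24 and -0.35.

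**Figure D3:**
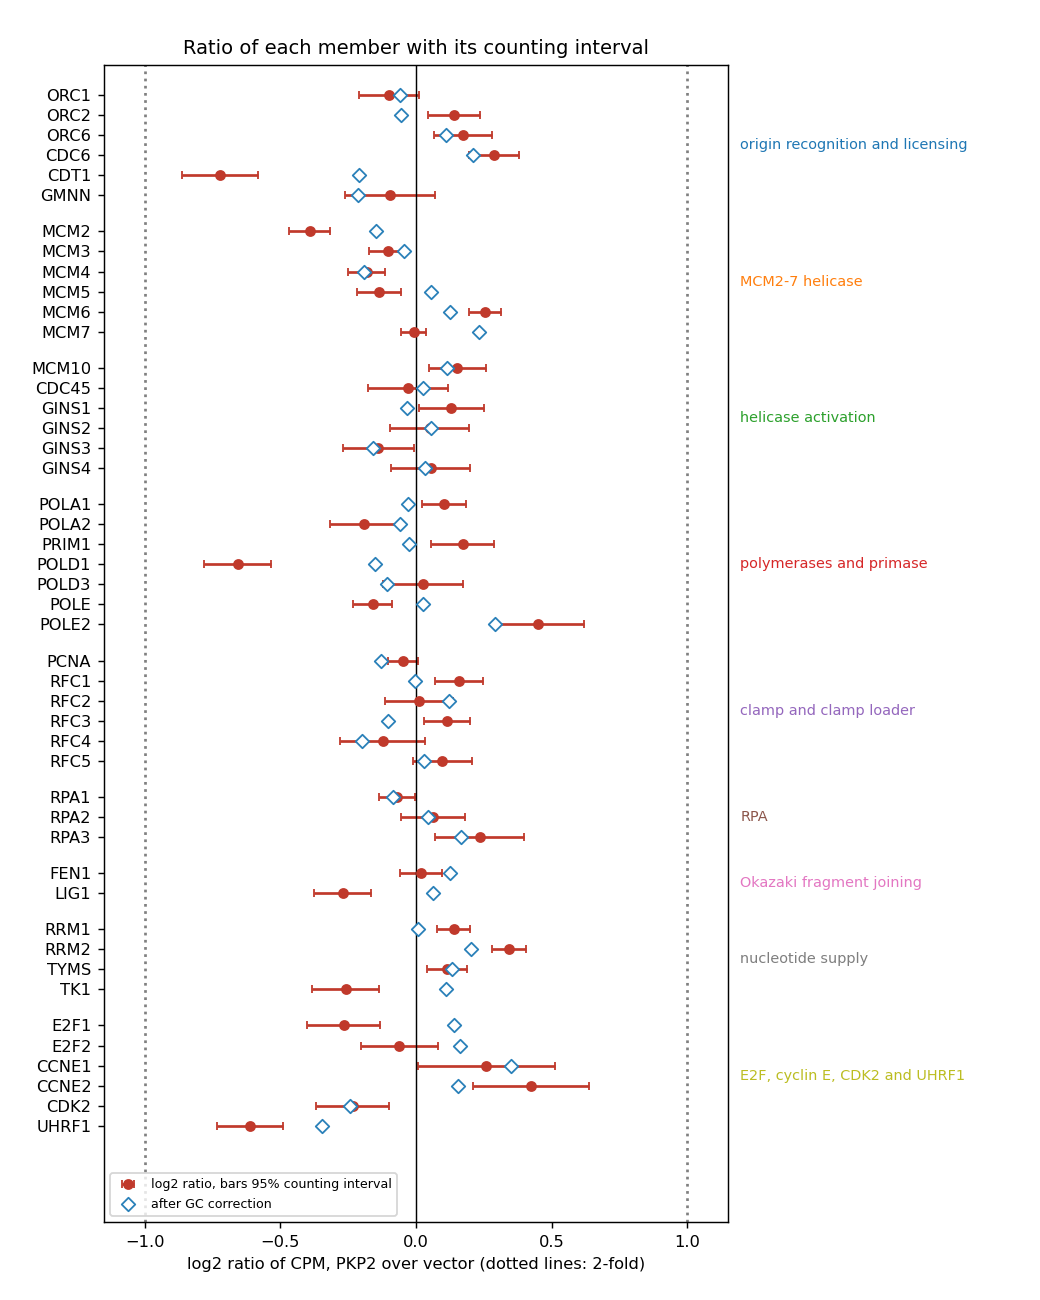
Log2 ratio of CPM, PKP2 over vector, for each member (red, bars are 95% counting intervals) and the same ratio after the correction for transcript GC content (open blue diamonds), ordered by role. No member reaches the dotted 2-fold lines, and the ratios of CDT1 (-0.72) and POLD1 (-0.66) move to -0.21 and -0.15 with the correction.

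Across members the ratio went with the GC content of the transcript, as it did across all genes. Spearman's rho between ratio and GC content was -0.76 over the 46 members and -0.61 over the 11610 genes that averaged 100 counts or more and have a transcript sequence, both across genes of the same 2 libraries, which are not independent replicates. Of the 23 members with the lower GC content (up to 48.1%) 19 had a ratio above 0, with a median of 0.14, and of the 23 with the higher GC content 5 did, with a median of -0.14. At a GC content of at least 55% the 11 members had a median ratio of -0.27 and the 3300 genes of that range one of -0.31. At a GC content under 45% the 13 members had 0.14 and the 4415 genes 0.19. CDT1 (64.9% GC) and POLD1 (64.8%) had the highest GC content of all members and also the lowest ratios, while CCNE2 (36.9%) had the lowest GC content and the next highest ratio after POLE2.

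**Figure D4:**
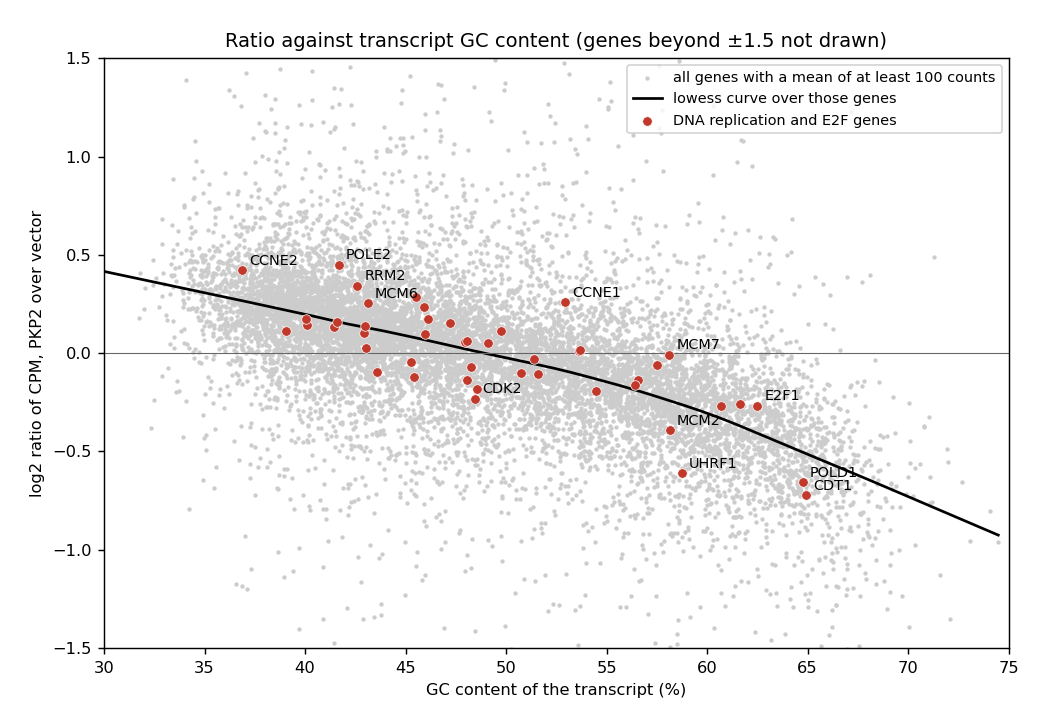
Log2 ratio, PKP2 over vector, against transcript GC content (%) for the members (red), for all genes that averaged 100 counts or more (grey) and for the lowess curve over those genes (black). The members follow the curve, which passes below 0 at high GC content, and CCNE1, POLE2 and MCM7 lie above it and UHRF1 and CDK2 below it.

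With the lowess curve over GC content subtracted, the members ran from -0.35 (UHRF1) to 0.35 (CCNE1), none passed 1.5-fold, and the median was 0.03. The interquartile range of the ratios was 0.28 for the members and 0.46 for the 11610 genes before the correction, and 0.22 and 0.30 after it. The corrected interval stayed above 0 for 9 of the 17 members that were above it (ORC6, CDC6, MCM6, MCM10, POLE2, RPA3, RRM2, TYMS and CCNE1) and below 0 for 8 of the 15 below it (CDT1, MCM2, MCM4, GINS3, POLD1, RPA1, CDK2 and UHRF1). E2F1 changed side, to 0.14 (interval 0.01 to 0.27), as did RFC3, to -0.10. MCM7, FEN1 and E2F2 moved above 0 and GMNN, PCNA and RFC4 below it. In all, 13 corrected intervals lay above 0 and 12 below, where 26.5% and 23.6% of the 11610 genes did.

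Some member counts are less certain, because the authors' use of strand and of shared reads is not given in the sources used here. For 3 of the 46 members 20% or more of the 31-base stretches also occur in another listed gene, and for 41 under 10% do. TYMS (42.0%) overlaps ENOSF1 on the opposite strand, which had 940 counts in the PKP2 library and 1140 in the vector library, for a ratio of -0.04. CCNE2 (36.0%) overlaps INTS8, which had 720 and 875 counts, for a ratio of -0.04 (-0.28 corrected), and summed with INTS8 the ratio of CCNE2 was 0.10 (interval -0.02 to 0.22). UHRF1 (27.3%) shares most with the processed pseudogene ENSG00000256663, which had 658 and 819 counts, for a ratio of -0.08, and their sum had a ratio of -0.40 (interval -0.50 to -0.31).

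The other genes of the pathway were mostly within 2-fold as well. Among genes averaging 100 counts or more, 32.7% had an interval above 0 and 32.8% one below. Corrected, and with a transcript sequence, 26.5% and 23.6% did. Of 16 genes of the E2F and RB network the interval lay above 0 for 6 and below 0 for 4, with a median of -0.01. Corrected, 4 lay above and 5 below, with a median of -0.03. LIN52, a subunit of the MuvB complex that partners E2F4 and MYBL2, was the only one at 2-fold, with 98 counts in the PKP2 library and 359 in the vector library, for a ratio of -1.64 (interval -1.97 to -1.31) and of -1.76 after the GC correction. RB1, the retinoblastoma protein gene, was at 0.38 (0.12 corrected), its relative RBL1 at 0.33 (0.14 corrected) and LIN37, which shares 24.3% of its stretches, at -0.37 with 88 and 134 counts (-0.09 corrected). Of 11 G1 cyclin, kinase and inhibitor genes with at least 10 counts on average 5 intervals lay above 0 and 4 below, and 4 and 3 when corrected. CDC25A, the phosphatase that activates CDK2, was at 0.45 (0.52 corrected), and CDK6, a D-cyclin kinase, at 0.35 (0.14 corrected). The inhibitor gene CDKN2C was at -0.27, but at -0.03 with the correction (interval -0.21 to 0.15). CDK4, which shares 38.6% of its stretches with other genes, was at -0.25 (-0.14 corrected). CCND2 (1 count in each library) and CDKN1C (0 and 3) had too few counts for a ratio, and CDKN2A and CDKN2B were not analysed here.

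Of 26 other fork and origin genes the interval lay above 0 for 12 and below for 6, with a median of 0.07 and none at 2-fold. Corrected, 6 lay above 0 and 5 below and the median was -0.02. The shares over genes averaging 100 counts or more were, as above, 32.7% and 32.8%, and 26.5% and 23.6% corrected. CHTF18, of an alternative clamp loader, and the helicase gene RECQL4 were both at -0.70, but after the GC correction at -0.11 and -0.17 with intervals that held 0. MCM8 and WDHD1 were both at 0.38, and at 0.23 and 0.14 corrected. Of 14 other E2F target, chromatin and nucleotide genes 6 lay above 0 and 5 below, with a median of 0.06, and 4 and 3 when corrected, with a median of 0.03. The mitochondrial thymidine kinase gene TK2 was at 0.91 (404 counts in the PKP2 library and 254 in the vector library, 0.95 corrected). RRM2B, a further ribonucleotide reductase subunit, was at 0.28, but at 0.01 with the correction (interval -0.10 to 0.12), and the DNA methyltransferase gene DNMT1 was at -0.27 (-0.11 corrected). The 20 mitotic genes had a median of 0.06 with 9 intervals above 0 and 5 below, FOXM1 being the only one at 2-fold (2090 and 1105 counts, for a ratio of 1.16, interval 1.05 to 1.26). With the correction this list had a median of -0.05, 2 intervals above 0 and 7 below, while FOXM1 was at 1.27. AURKB, a mitotic kinase, was at -0.50 (-0.31 corrected), CDC20, an activator of the anaphase-promoting complex, at -0.34 (-0.11 corrected) and CENPE, a kinetochore motor, at 0.33 (0.02 corrected). The members had a median of 0.01 and of 0.03 corrected, and the difference between lists was not tested.

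**Figure D5:**
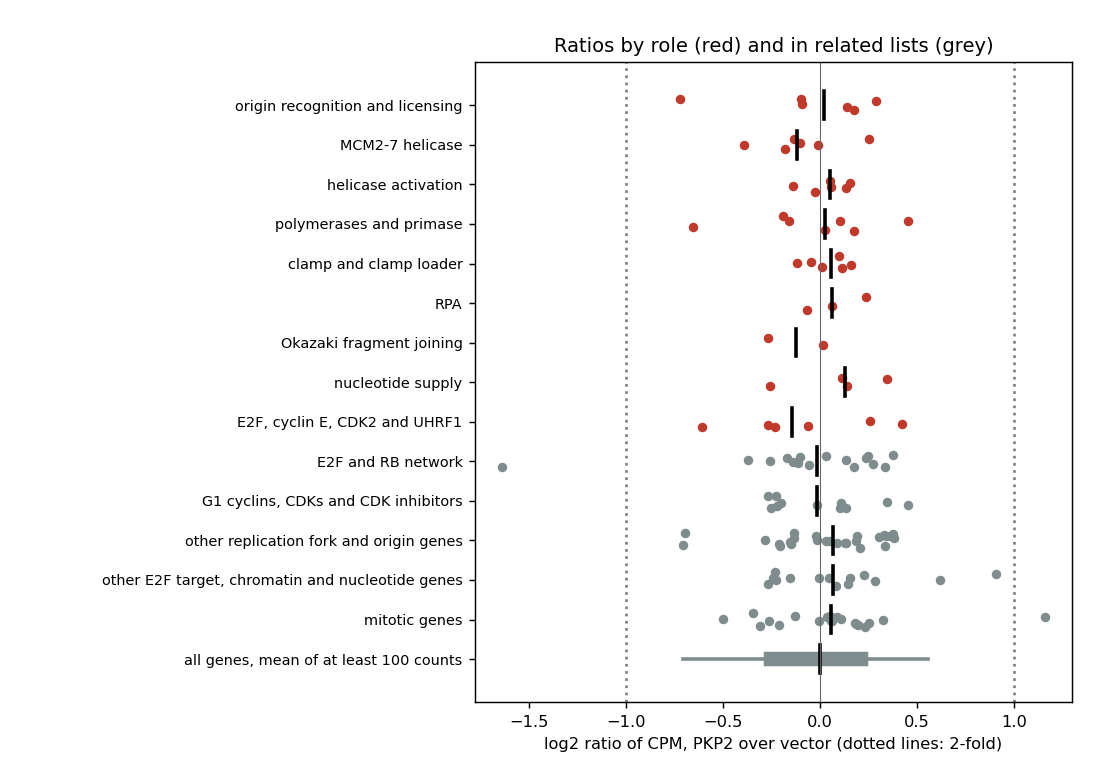
Log2 ratio, PKP2 over vector, of each gene by role of the members (red) and in the related lists (grey), with the median as a black bar. The last row shows all genes that averaged 100 counts or more (thick bar, 25th to 75th percentile, -0.25 to 0.21; thin bar, 5th to 95th, -0.70 to 0.55), and only LIN52 (-1.64) and FOXM1 (1.16) pass the dotted 2-fold lines.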

How the data were processed

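Total RNA was made into Illumina TruSeq libraries, per the labels' protocols, and the submitters' processing notes name Bowtie 0.12.2 with GRCh37 and hg19. How reads were counted, on which annotation and with which strand setting, is not given in the sources used here. The deposited files hold 1 unscaled count for each Ensembl gene, per the file headers. These are classed as estimated counts, as deposited, because of the decimal in 1 damaged row. In each file 2 rows without a readable count were left out, and no rounding was needed.

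Symbols came from a gene name table (22579 of 22965 IDs). Counts were scaled by library totals times TMM factors from edgeR 4.0.16 in R 4.3.3, which were 0.991 for the PKP2 library and 1.01 for the vector library, with no pseudocount. Intervals of ratios are exact binomial (Clopper-Pearson, 95%). Those of differences between 2 genes' ratios are normal approximations from the 4 counts. Both cover counting error only, since without molecular identifiers reads cannot be taken as independent molecules. With 1 library per group edgeR's test cannot estimate the spread between cultures. Genes averaging 10 counts or more make up the genes tested. GC content, length, overlaps and shared 31-base stretches are those of GENCODE release 29 transcripts (the APPRIS principal one for GC content and length, else the longest), used by gene ID because its build differs. The GC correction subtracts a lowess fit (statsmodels 0.14.6, smoothing fraction 0.3) made over genes averaging 100 counts or more. Promoter sequences are RefSeq's, matched by symbol. DESeq2 1.42.0 gave size factors for an alternative scaling. The steps were tested on simulated data.

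The members, lists and rules were chosen with earlier results of these data known. The rule names PKP2, all members, the members with the most E2F motifs, CDKN2A, and of each related list the 4 genes with the ratios farthest from 0. A gene of these lists is not reported here. Other genes and all pairs of members were chosen after their values were seen.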

Additional observations from a re-analysis of the deposited data

How the results depend on the processing

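No paired analysis was possible because there is 1 library per group. The members' median, counts at 2-fold and interval counts kept within the planned tolerance under every scaling, GC and length correction tried. They also did so without the 3 members of shared sequence, an alternative chosen after seeing the data. The tolerance was a median within -0.10 to 0.11, and a count equal to the main one or within 1.5-fold of it. The count filters could not change these member results, since the lowest member mean was 261 counts. The alternative library scalings moved all ratios together, by -0.03 to 0.02. They could not take the median out of its tolerance or bring a member to 2-fold, and could only change the interval counts. The median ranged from -0.01 (library totals without TMM factors) to 0.04 (length correction), with -0.02 for the mean. Interval counts were not recomputed with a pseudocount. The 1.5-fold threshold gave 3 members lower. With the GC correction 24 of the 46 members' ratios left their counting interval and 15 changed sign, against 3 and 4 with the length correction and 0 and at most 3 under the other scalings.

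The count of all genes past 2-fold depends on low counts. It was 1132 (395 higher and 737 lower), 429 with 1 CPM added (180 and 249), 187 with 5 CPM added (106 and 81), 4658 with no count filter (1858 and 2800), 499 at a mean of at least 50 counts (195 and 304) and 370 at a mean of at least 100 (161 and 209). At 1.5-fold it was 3158 (1098 and 2060) and at 3-fold 365 (114 and 251). The depth gives members at least 259 counts in each library, and the widest member interval is that of CCNE1, 0.01 to 0.51. The spread between cultures is unknown for every gene.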

Other observations

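Genes that overlap members in the annotation were looked up after the members' values were seen. FADS2, a fatty acid desaturase gene that overlaps FEN1 on the same strand, had 4353 counts in the PKP2 library and 7683 in the vector library, for a ratio of -0.58 (interval -0.64 to -0.53), where FEN1 was at 0.02. With the GC correction FADS2 was at -0.25 and FEN1 at 0.13. NACA, which overlaps PRIM1 on the same strand, had 4418 and 5916 counts, for a ratio of -0.18, where PRIM1 was at 0.17, and with the correction NACA was at -0.21 and PRIM1 at -0.02. On the opposite strand TMEM258, a subunit of the oligosaccharyltransferase that overlaps FEN1, was at -0.69 (248 and 472 counts, -0.65 corrected) and GSE1, which overlaps GINS2, at -0.59 (522 and 927, -0.46 corrected). UMAD1, which overlaps RPA3, was at 0.27 (616 and 603 counts) and RPA3 at 0.23, and with the correction UMAD1 was at 0.03 (interval -0.14 to 0.19) and RPA3 at 0.17.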
